A study of Homo sapiens with 9 samples.

Results

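The enzymes that build chondroitin sulfate and dermatan sulfate were followed in human intestinal epithelial cell lines with and without interferon gamma. The enzymes considered were CHSY1, CHPF, CSGALNACT1, CSGALNACT2, CHST3, CHST11, CHST12, CHST13, DSE and UST, and 9 of these 10 genes were found by symbol among the 927 genes that the array table names. Each of the 9 was measured by 1 probe set, of a kind shared among transcripts for CSGALNACT1 and CHST11. No probe set mapped to DSE, an epimerase that turns chondroitin into dermatan, and it is not analysed here.

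The study hybridised 9 RNA samples to 9 arrays, 3 in each of 3 groups. T84 and Caco-2 are established lines from human colon carcinomas. The first group was T84 given interferon gamma at 100 U/ml for 24 hours, called treated T84. The second was untreated T84 at passage 68 and the third untreated Caco-2 at passage 37, both taken at 90% confluence; the passage and confluence of the treated cells were not given in the sources used here, and there was no treated Caco-2. Nothing in the labels tells whether a group's 3 arrays hold separately grown cells, so the p-values below measure only the spread between these arrays, which may be technical. A difference between T84 and Caco-2 is one between 2 lines grown to different passages.

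Chondroitin sulfate is a long chain of alternating glucuronic acid and N-acetylgalactosamine that hangs from the serine residues of carrier proteins, and dermatan sulfate is the form in which part of the glucuronic acid has been converted to iduronic acid. CSGALNACT1 and CSGALNACT2 place the first N-acetylgalactosamine on the linkage sugars and so start a chain, CHSY1 and its partner CHPF lengthen it, and the carbohydrate sulfotransferases then add sulfate at defined positions of each sugar. In the gut, these chains are part of the epithelial cell surface and the basement membrane, where they bind growth factors and chemokines. Interferon gamma is a cytokine of T cells and natural killer cells.

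The promoter windows of 3 members are shown because the first belonged to the 1 member that rose with interferon gamma and the others to the 2 members that differed most between the lines. Each is the 250 bases before the gene's start in RefSeq on GRCh38.p14, written 5′ to 3′ on the gene's strand. Capitals mark the GC box, GGGCGG or its reverse complement CCGCCC. CHSY1 lies at chr15:101252049-101252298 on the minus strand, CHST3 at chr10:71964145-71964394 on the plus strand (the first of its 3 windows) and CHST13 at chr3:126523905-126524154 on the plus strand.
CHSY1: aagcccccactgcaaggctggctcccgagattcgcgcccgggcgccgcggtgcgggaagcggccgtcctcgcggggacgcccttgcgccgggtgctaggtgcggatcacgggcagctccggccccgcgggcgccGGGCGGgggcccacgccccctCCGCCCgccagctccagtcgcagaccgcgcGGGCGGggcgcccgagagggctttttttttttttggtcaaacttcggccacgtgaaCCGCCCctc
CHST3: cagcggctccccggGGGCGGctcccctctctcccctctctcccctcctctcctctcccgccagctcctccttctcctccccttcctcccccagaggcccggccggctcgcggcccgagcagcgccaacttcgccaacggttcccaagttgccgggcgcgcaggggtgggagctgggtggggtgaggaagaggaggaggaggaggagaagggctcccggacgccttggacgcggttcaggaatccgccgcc
CHST13: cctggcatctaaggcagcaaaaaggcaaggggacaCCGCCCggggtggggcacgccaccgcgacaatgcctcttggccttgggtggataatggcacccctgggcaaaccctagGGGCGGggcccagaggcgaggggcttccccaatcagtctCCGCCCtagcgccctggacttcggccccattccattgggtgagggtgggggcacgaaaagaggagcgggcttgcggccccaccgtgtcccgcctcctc

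The CHSY1 window held 4 GC boxes, 74.8% G or C and 36 CpG dinucleotides. CHST3 had 1 GC box, 72.4% G or C and 21 CpG, and CHST13 had 3 GC boxes, 67.6% G or C and 15 CpG. Windows were searched for 8 members, on both strands, also where matches of different motifs overlapped. All 8 windows (these 3 and those of CHPF, CSGALNACT2, CHST11, CHST12 and UST) held a GC box, against 42.5% of the 34943 windows of the RefSeq table. G or C made up from 59.6% (UST) to 78.0% (CHST12) of the bases, against a median of 58.0% over all windows, and CpG counts ran from 15 to 37 against a median of 11. The interferon response core AANNGAAA, found in 20.3% of all windows, was in 1 of the 8, that of UST. The TATA box TATAAA, found in 10.8% of all windows, was in none of the 8. These are matches of letters within 250 bases and were not measured as binding.

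Levels are given as the deposited log2 signal, so that 1 unit is a doubling, and each probe set was compared only with itself across arrays, since probe sets differ in how brightly they hybridise. The 9 array medians lay between 6.7 and 6.8. Of the epithelial markers looked for, 4 of 17 were measured (LGALS4, MUC1, MUC2 and MUC13), and their mean per array was 10.69 to 10.71 in treated T84, 10.36 to 10.41 in untreated T84 and 7.87 to 8.02 in Caco-2. All 4 were higher in both T84 groups than in Caco-2, from 0.56 (treated) and 0.40 (untreated) for MUC2 to 5.56 and 6.10 for LGALS4. Of all probe sets, 19.4% (treated) and 19.5% (untreated) were higher. With interferon gamma 2 of these 4 rose and 1 fell, where 4.37% of all probe sets rose and 5.8% fell. The 13 measured leukocyte markers averaged 5.84 to 5.87, 5.77 to 5.85 and 5.72 to 5.78 in treated T84, untreated T84 and Caco-2. Of these 13, 2 were higher and 0 lower in each T84 group than in Caco-2 (15.4%). The 12 measured fibroblast and endothelial markers averaged 5.36 to 5.42, 5.34 to 5.40 and 5.68 to 5.83, and 6 of them, among them FMOD, PDGFRA and LUM, were lower in both T84 groups than in Caco-2, against 26.2% (treated) and 24.2% (untreated) of all probe sets. ICAM2 was higher in both, by 2.90 and 2.66. The part of these markers in the results below was not tested. In bulk RNA, fewer cells of a type and less RNA per cell cannot be told apart.

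Along the first component of the deviations from the group means, which held 70.9% of the variation within groups, Caco-2 replicate 1 (score -9.44, against 5.06 and 4.39) and untreated T84 replicate 3 (-5.49, against 3.37 and 2.12) stood apart from the other arrays of their groups. The treated T84 arrays were evenly spread (2.39, 0.06 and -2.44), with replicate 3 at the same end. These 3 arrays, the lowest-scoring of each group, also held the lowest CSGALNACT2 signal of each group. Calls that changed when these 3 were left out together are given below.

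Differences were tested with limma in 1 fit over 9 arrays and all 1259 probe sets, with p-values adjusted by Benjamini-Hochberg over the 1259, and a gene is said to have risen, fallen or been higher or lower if its adjusted p was below 0.05. With interferon gamma, CHSY1 rose 1.4-fold and the other 8 measured members did not pass, so that 1 of 9 was called, against 10.2% of all probe sets (4.37% higher and 5.8% lower). The median log2 difference of the 9 was 0.09, beside -0.01 over all probe sets. Between the lines more members differed. In treated T84 against Caco-2, 6 of 9 passed (1 higher, 5 lower), where 45.6% of all probe sets did (19.4% higher and 26.2% lower). In untreated T84 against Caco-2, 4 of 9 passed (1 higher, 3 lower), where 43.7% did (19.5% higher and 24.2% lower), so that this count was near the background. The median member difference was -0.27 for treated and -0.14 for untreated T84, beside 0.02 over all probe sets in both. Both comparisons use the same Caco-2 arrays. Without Caco-2 replicate 1 these medians were -0.17 and -0.00, and without the 3 lowest-scoring arrays -0.12 and -0.02. The split between higher and lower also moved, to 3 higher and 3 lower for treated and 2 higher and 4 lower for untreated T84, both without those 3 arrays and with array weights. With the arrays centred on 51 ribosomal protein probe sets, which moved the median of all probe sets to 0.28 and 0.21, the split was 3 higher and 2 lower for treated and 3 higher and 3 lower for untreated T84.

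**Figure D1:**
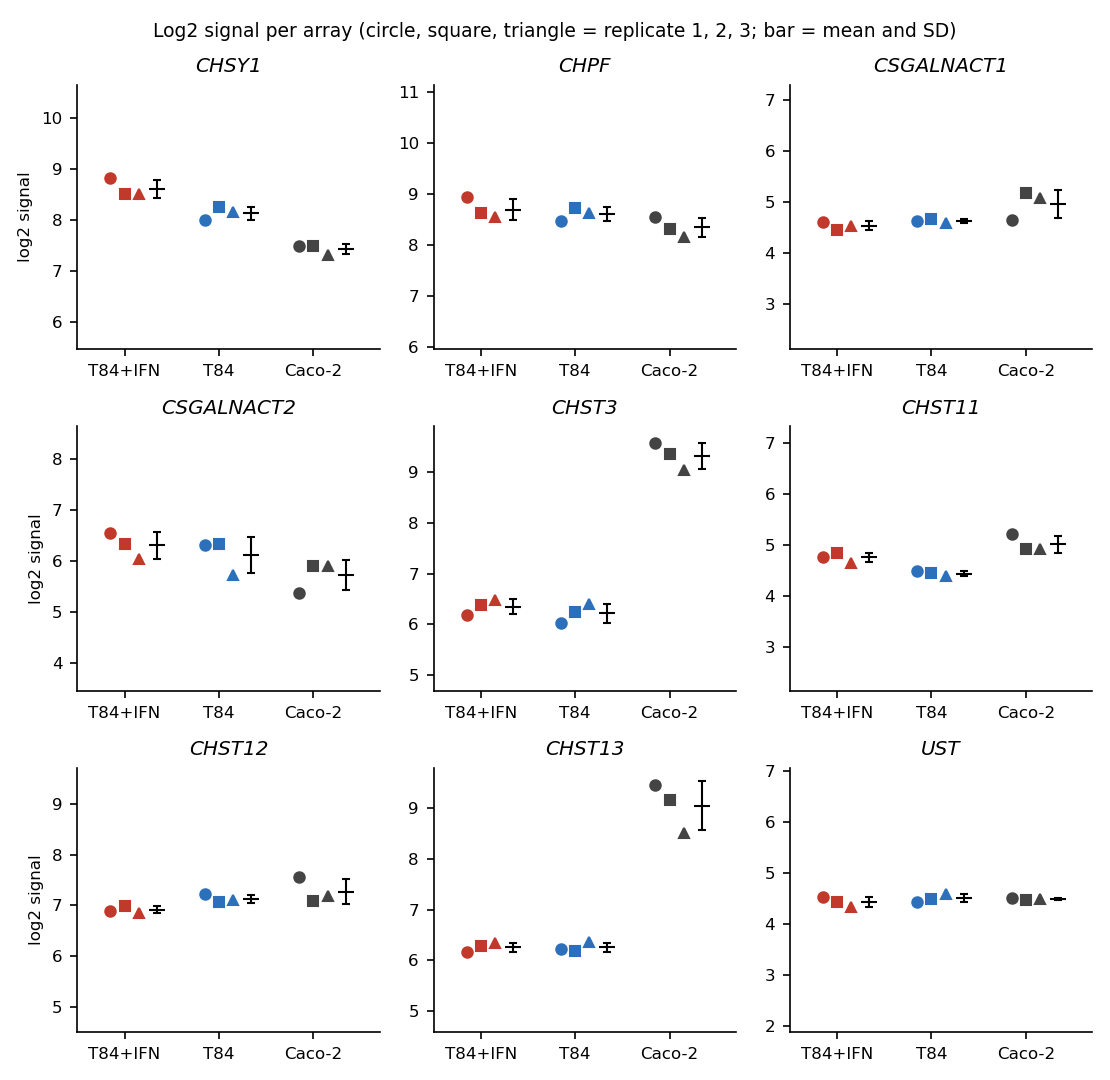
Log2 signal of each of the 9 measured synthesis enzymes in every array, with symbols for replicates 1, 2 and 3 and a black bar for the mean and SD of each group (T84+IFN is treated and T84 untreated T84). Each axis spans the same number of log2 units but starts at its own level. CHST3 and CHST13 stand more than 2 log2 units higher in Caco-2 than in either T84 group, and CHSY1 is highest in treated T84 and lowest in Caco-2.

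CSGALNACT1 and CSGALNACT2, the enzymes that start the chain, gave no difference that passed with interferon gamma. CSGALNACT1 read 4.61, 4.44 and 4.53 in treated T84, 4.62, 4.66 and 4.59 in untreated T84 and 4.65, 5.17 and 5.08 in Caco-2. The 2 T84 groups overlapped, and Caco-2 was higher in 2 of its 3 arrays with the third level with untreated T84. The treated minus untreated difference was -0.10 ± 0.13 (SE, n = 3 and 3; limma adjusted p = 0.809). Against Caco-2, treated T84 was 1.35-fold lower (-0.44 ± 0.13; limma adjusted p = 0.0198), whereas the difference for untreated T84 did not pass (-0.34 ± 0.13; adjusted p = 0.0577). Both results depended on single arrays. The first call was lost in 7 alternatives, among them without treated T84 replicate 2 or 3 or Caco-2 replicate 2 or 3 (limma adjusted p 0.0512 to 0.0704) and under ribosomal centring (-0.18; 0.24). A call for untreated T84 was gained in 4, among them without Caco-2 replicate 1 (-0.50; limma adjusted p = 0.000311) or the 3 lowest-scoring arrays (-0.48; 0.0034).

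CSGALNACT2 read 6.54, 6.32 and 6.03 in treated T84, 6.31, 6.33 and 5.71 in untreated T84 and 5.37, 5.89 and 5.90 in Caco-2. Its SDs of 0.26 to 0.35 were the widest of any member in both T84 groups, and its lowest array in each group was the lowest-scoring one. None of its differences passed. Treated exceeded untreated T84 by 0.18 ± 0.22 (limma adjusted p = 0.794), and the 2 T84 groups exceeded Caco-2 by 0.58 ± 0.22 (0.0623) and 0.40 ± 0.22 (0.191). Without the 3 lowest-scoring arrays both differences from Caco-2 passed (0.54 and 0.42; limma adjusted p = 0.00236 and 0.00678). The first also passed without treated replicate 3 (0.71; limma adjusted p = 0.0469) or untreated replicate 3 (0.58; 0.0331), with array weights (0.43; 0.0285) and under ribosomal centring (0.83; 0.00839), and the second without untreated replicate 3 (0.60; 0.0474) and under ribosomal centring (0.58; 0.0441).

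CHSY1, which carries both the glucuronic acid and the N-acetylgalactosamine transferase activity that lengthens the chain, was the member that rose with interferon gamma. It read 8.83, 8.51 and 8.51 in treated T84, 7.99, 8.26 and 8.15 in untreated T84 and 7.48, 7.49 and 7.31 in Caco-2. No array of one group overlapped another, and the order was treated T84, untreated T84, Caco-2. Treated exceeded untreated T84 by 0.48 ± 0.11 (95% CI 0.24 to 0.73), which is 1.4-fold (1.18 to 1.66; limma adjusted p = 0.0232). Against Caco-2 the level was 2.28-fold higher in treated T84 (1.92 to 2.7; limma adjusted p = 2.5e-05) and 1.63-fold higher in untreated T84 (1.37 to 1.93; 0.000708). The interferon call was lost without treated replicate 1 (limma adjusted p = 0.051), untreated replicate 1 (0.0878), untreated replicate 3 (0.0722) or the 3 lowest-scoring arrays (0.0794). Both calls against Caco-2 held in every alternative that was run, with log2 differences of 1.08 to 1.44 and 0.64 to 0.89.

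CHPF, the partner that CHSY1 needs for chain polymerisation, gave no difference that passed. Its signal was 8.93, 8.62 and 8.54 in treated T84, 8.46, 8.73 and 8.62 in untreated T84 and 8.54, 8.32 and 8.16 in Caco-2. The 2 T84 groups interleaved, and treated replicate 1 was the highest array of all 9, as it was for CHSY1. The treated minus untreated difference was 0.09 ± 0.13 (limma adjusted p = 0.828). It exceeded Caco-2 by 0.35 ± 0.13 in treated T84 (0.0564) and by 0.26 in untreated T84 (0.147), neither past the threshold. The former passed in 7 alternatives, among them without the 3 lowest-scoring arrays (0.53; limma adjusted p = 0.0225), without Caco-2 replicate 1 (0.45; 0.02) or treated replicate 3 (0.43; 0.0446) and under ribosomal centring (0.61; 0.00514). The latter passed with array weights (0.30; limma adjusted p = 0.0398) and under ribosomal centring (0.45; 0.0249).

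**Figure D2:**
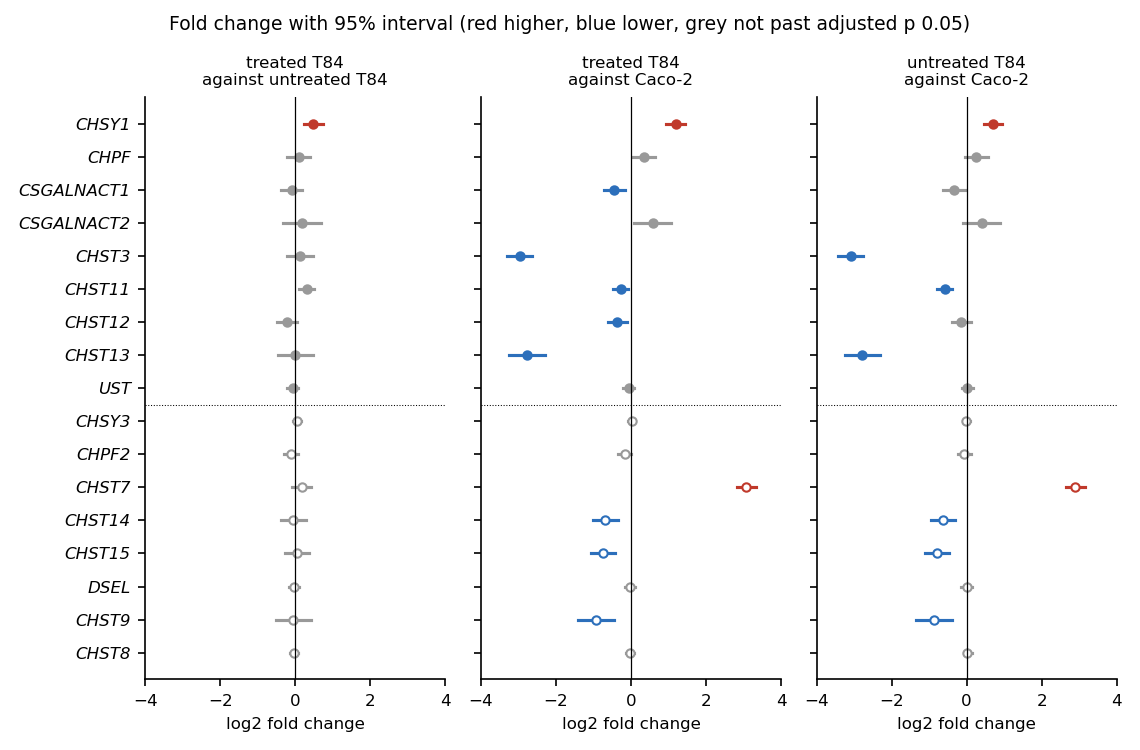
Log2 difference with its 95% confidence interval for the 9 enzymes (filled) and, below the dotted line, 8 other synthesis enzymes (open) in the 3 comparisons, from the limma fit over 9 arrays, in red where higher, blue where lower and grey where not past an adjusted p of 0.05. In treated against untreated T84 the interval of CHSY1 runs from 0.24 to 0.73 and that of CHST13 from -0.46 to 0.47, while CHST3 and CHST13 lie near -3 against Caco-2 for both T84 groups.

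CHST11, CHST12 and CHST13 put sulfate on the O-4 position of N-acetylgalactosamine. CHST11 read 4.76, 4.84 and 4.66 in treated T84, 4.49, 4.45 and 4.39 in untreated T84 and 5.22, 4.93 and 4.92 in Caco-2. The groups did not overlap, with Caco-2 highest and untreated T84 lowest. The difference between treated and untreated T84, 0.31 ± 0.09 (95% CI 0.11 to 0.51), missed the threshold (limma adjusted p = 0.0666). It passed in a fit of the 6 T84 arrays alone (limma adjusted p = 0.0186), without Caco-2 replicate 1 (0.0076) and without the 3 lowest-scoring arrays (0.0213), so that leaving out those 3 gave CHST11 and not CHSY1 as the 1 member called. Untreated T84 was 1.5-fold below Caco-2 (1.3 to 1.72; -0.58 ± 0.09; limma adjusted p = 0.000704), a call that held in every alternative that was run. Treated T84 was also below Caco-2 (-0.27 ± 0.09; limma adjusted p = 0.0355), and that call was lost in 11 alternatives, among them without the 3 lowest-scoring arrays (-0.12; 0.122), Caco-2 replicate 1 (-0.17; 0.0527), treated replicate 1 (0.0819) or 3 (0.118), untreated replicate 1 (0.0516) or 2 (0.0549), and under ribosomal centring (-0.01; 0.913).

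**Figure D3:**
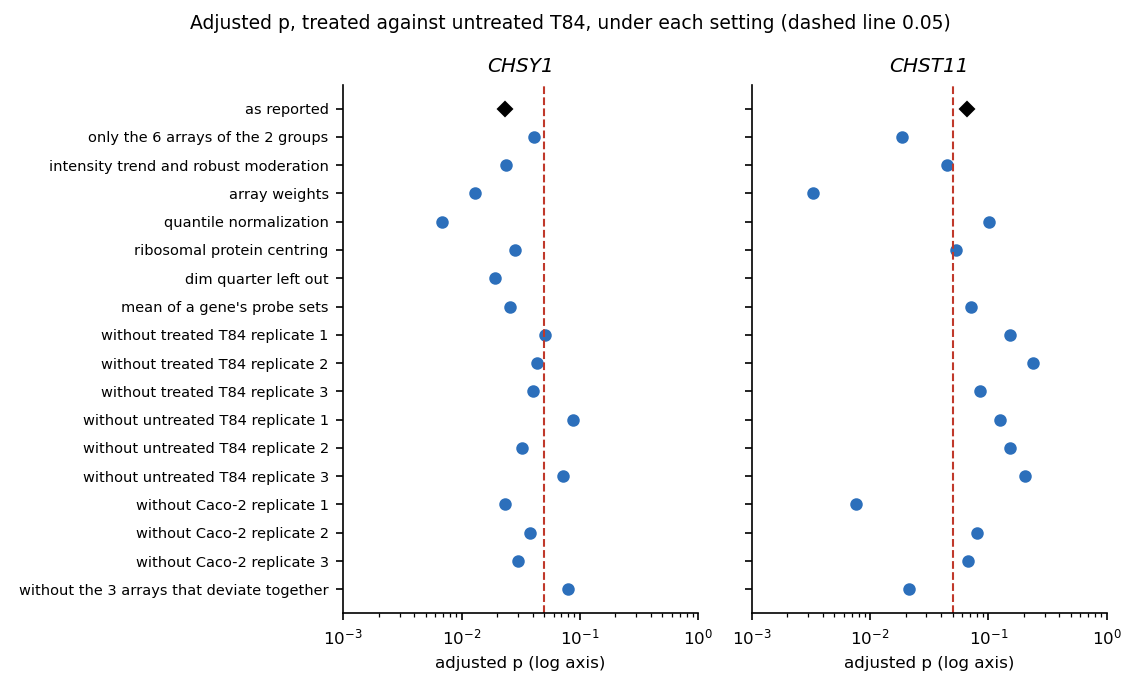
Limma adjusted p of CHSY1 and CHST11 in treated against untreated T84 on a log axis, as reported (diamond) and with 1 choice of the processing changed at a time or arrays left out (circles). CHSY1 passes 0.05 as reported and crosses the dashed line in 4 of the alternatives shown, and CHST11 does the reverse in 5 of them.

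CHST12 read 6.90, 6.99 and 6.86 in treated T84, 7.22, 7.07 and 7.11 in untreated T84 and 7.55, 7.08 and 7.19 in Caco-2. The treated arrays lay below all the others without overlap. The difference of -0.22 ± 0.11 between the T84 groups did not pass (limma adjusted p = 0.382). Treated T84 was below Caco-2 by 0.36 on the log2 scale (-0.36 ± 0.11; limma adjusted p = 0.031), while untreated T84 overlapped Caco-2 (-0.14; 0.373). The Caco-2 mean leaned on replicate 1, which stood above its other arrays. The call against Caco-2 was lost in 8 alternatives, among them without treated replicate 1 (limma adjusted p = 0.0812) or 3 (0.0931), without the 3 lowest-scoring arrays (-0.19; 0.0976) and under ribosomal centring (-0.10; 0.439).

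CHST13 and CHST3 separated the lines. CHST13 read 6.17, 6.29 and 6.34 in treated T84, 6.23, 6.19 and 6.36 in untreated T84 and 9.45, 9.15 and 8.51 in Caco-2. The T84 arrays of both groups overlapped between 6.17 and 6.36, far below the lowest Caco-2 array. Against Caco-2 the signal was 6.83-fold lower in treated cells (95% CI 4.94 to 9.45; limma adjusted p = 7.21e-06) and 6.85-fold lower in untreated T84 (4.95 to 9.47; 8.62e-06). Interferon gamma gave a difference of 0.00 ± 0.20, with a 95% interval of -0.46 to 0.47 (limma adjusted p = 0.995), so that this fit does not exclude changes within that interval. The fit shares 1 estimate of spread over the 3 groups, whose SDs were 0.09 in each T84 group and 0.48 in Caco-2.

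CHST3 adds sulfate at the O-6 position of N-acetylgalactosamine, and loss of its function in people is known to cause a skeletal dysplasia. It read 6.19, 6.38 and 6.48 in treated T84, 6.02, 6.24 and 6.40 in untreated T84 and 9.56, 9.35 and 9.04 in Caco-2. The T84 groups overlapped and every Caco-2 array was above all of them. Caco-2 exceeded treated T84 by 7.82-fold (95% CI 6.17 to 9.9; limma adjusted p = 6.49e-07) and untreated T84 by 8.51-fold (6.72 to 10.8; 5.86e-07). Treated and untreated T84 differed by 0.12 ± 0.15 (limma adjusted p = 0.793). The differences of CHST3 and CHST13 from Caco-2 kept their calls in every alternative that was run, with log2 values from -3.23 to -2.71 for CHST3 and from -3.04 to -2.52 for CHST13.

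UST, which adds sulfate at the O-2 position of the uronic acid, read 4.53, 4.42 and 4.32 in treated T84, 4.42, 4.49 and 4.58 in untreated T84 and 4.50, 4.46 and 4.49 in Caco-2. The 3 groups overlapped throughout and no difference passed (limma adjusted p = 0.657, 0.493 and 0.863, with log2 differences of -0.07, -0.06 and 0.02). Its mean signal stood at percentile 13.0 of the probe sets, with CSGALNACT1 at 16.0 and CHST11 at 16.8. These 3 were below percentile 25 of the table, where a low signal can hide a difference. The table holds no detection calls, so whether they were expressed was not measured.

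The genes whose pattern over the 9 arrays was closest to these members were found by the root mean square difference of log2 signal, each gene set to its own mean, over 926 other genes. CHST3 and CHST13 were near neighbours of each other, at 0.182. SIGLEC6, a sialic acid binding lectin, was nearest to both, at 0.109 from CHST3 and 0.138 from CHST13, with FMOD (0.143) next for CHST3 and IGFBP2 (0.226) for CHST13. The median distance over all genes was 1.45 from CHST3 and 1.34 from CHST13. CHSY1 was closest to HS3ST1 (0.147), a heparan sulfate sulfotransferase, to the chemokine CXCL1 (0.15) and to the inositol phosphate kinase ITPK1 (0.159), against a median of 0.514. These distances are a description over 9 arrays that fall into 3 groups.

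Of 8 other synthesis enzymes measured (CHSY3, CHPF2, CHST7, CHST8, CHST9, CHST14, CHST15 and DSEL), limma called 0 in treated against untreated T84. The background was 10.2% of all probe sets, and 0 of these 8 had an unadjusted p below 0.05. Against Caco-2, 1 was higher, 3 were lower and 4 did not pass in each T84 group. Of all probe sets, 45.6% (treated) and 43.7% (untreated) were called, so that these counts were near the background. The higher enzyme was CHST7, the second enzyme of O-6 sulfation, and it ran opposite to CHST3. CHST7 read 9.72, 9.64 and 9.51 in treated T84, 9.39, 9.46 and 9.50 in untreated T84 and 6.80, 6.46 and 6.37 in Caco-2. Every T84 array was far above every Caco-2 array, by 8.44-fold in treated (7.08 to 10.1; limma adjusted p = 7.28e-08) and 7.48-fold in untreated T84 (6.28 to 8.92; 1.37e-07). The O-6 sulfotransferases differed between the lines in opposite directions, each by more than 7-fold. CHST14, which sulfates dermatan, was lower in T84 by 0.68 in treated (log2 difference -0.68 ± 0.14) and 0.63 in untreated cells (-0.63 ± 0.14). CHST15, which makes a doubly sulfated N-acetylgalactosamine, showed -0.75 and -0.79, and CHST9, which acts mainly on N-acetylgalactosamine of other glycans, -0.92 and -0.87. CHST9 read 3.13, 3.31 and 3.21 in treated T84, 3.26, 3.22 and 3.31 in untreated T84 and 3.58, 4.52 and 4.31 in Caco-2. Its signal was dim, and its SD in Caco-2 was 0.49.

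Enzymes that supply the donors and begin the linkage region fell in part with interferon gamma. PAPSS2, which makes the sulfate donor used by every sulfotransferase above, read 8.93, 8.80 and 8.80 in treated T84 and 9.90, 9.90 and 9.86 in untreated T84, against 7.84, 8.31 and 8.28 in Caco-2. The groups were fully apart. The treated level of PAPSS2 fell 2.06-fold (1.71 to 2.47; limma adjusted p = 0.000704) and stayed above Caco-2 in both T84 groups, by 0.70 and 1.74 on the log2 scale. PAPSS1, the other synthase of that donor, fell by 0.23 on the log2 scale (-0.23 ± 0.06; limma adjusted p = 0.0453), a call lost when any 1 treated or untreated T84 array was left out (0.0678 to 0.169). Other alternatives also lost it, among them leaving out the 3 lowest-scoring arrays (-0.21; limma adjusted p = 0.115) and fitting only the 6 arrays of the 2 groups (0.0626). Quantile normalization (-0.17; 0.224) and ribosomal centring (-0.16; 0.335) did so as well. Of 11 donor supply genes measured PAPSS2 and PAPSS1 fell (18.2%) and 0 rose, where 5.8% of all probe sets fell and 4.37% rose. XYLT1, which attaches the xylose on which every chain is built, read 7.31, 7.18 and 7.09 in treated T84 and 7.69, 7.99 and 7.87 in untreated T84. It fell 1.58-fold (-0.66 ± 0.11; limma adjusted p = 0.00591) by a probe set of a kind that can cross-hybridise. A second probe set, for the same transcript, gave -0.63 (0.0187). It was the 1 gene of 7 in the linkage region list that fell (14.3%), and 0 rose. Against Caco-2, the clearest differences in these lists were in SLC35B4, a nucleotide sugar transporter, at -1.96 for treated and -1.97 for untreated T84, in PAPSS1 at -1.17 and -0.94, in SLC35D2, another such transporter, at -1.08 and -0.96, and in XYLT2, the second xylosyltransferase, at -1.21 and -1.02.

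**Figure D4:**
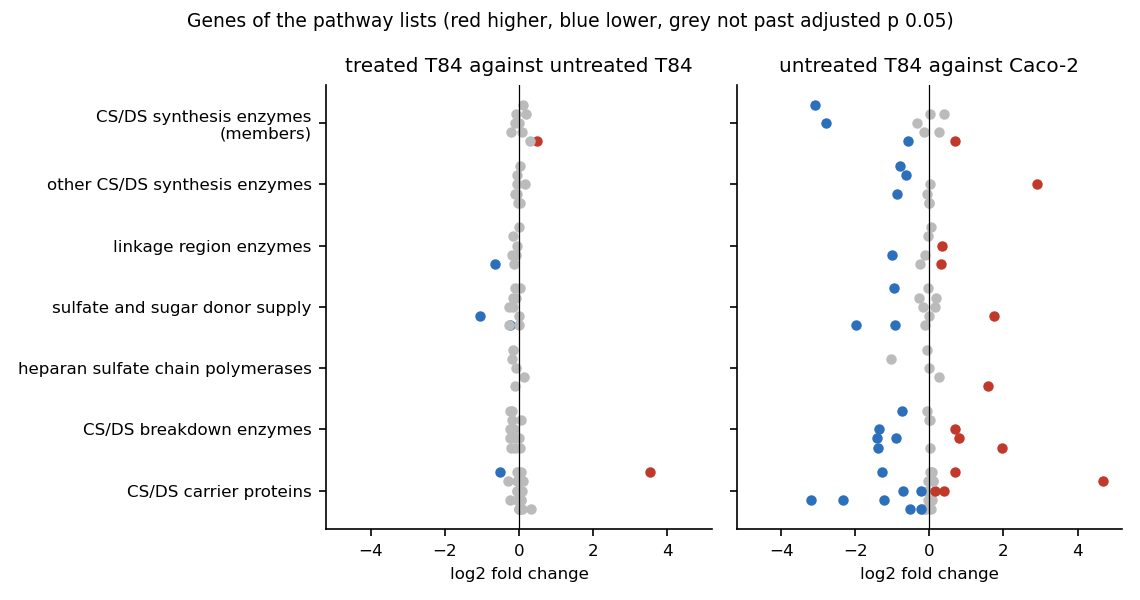
Log2 difference of each measured gene (1 point each) in the synthesis list and the other pathway lists, for treated against untreated T84 (left) and untreated T84 against Caco-2 (right), in red where higher, blue where lower and grey where not past an adjusted p of 0.05. On the left, CD74 at 3.54 and PAPSS2 at -1.04 stand farthest from 0 in opposite directions, and on the right CD44 reaches 4.68 and FMOD -3.21.

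Heparan sulfate competes with chondroitin sulfate for the same linkage sugars. Limma called 0 of its 5 measured polymerase genes with interferon gamma (0 at an unadjusted p below 0.05), beside 10.2% of all probe sets. In treated T84 against Caco-2, 2 were higher and 1 was lower (60.0%, beside 45.6% of all probe sets). The lower one overlapped between the groups, and a fit of only the 6 arrays lost its call (limma adjusted p = 0.0931). In untreated T84 against Caco-2, 1 was higher and 0 were lower (20.0%, beside 43.7%). EXT1 was higher in both, by 1.46 in treated and 1.58 in untreated cells, and EXT2 was higher in treated T84 by 0.38. Among 12 enzymes that break the chains down, limma called 0 with interferon gamma, beside 10.2% of all probe sets. Of the 12, 4 had an unadjusted p below 0.05. Against Caco-2, 3 were higher and 5 lower in each T84 group. That is 66.7%, where 45.6% (treated) and 43.7% (untreated) of all probe sets were called. IDS, which removes sulfate from iduronic acid, was higher by 1.74 and 1.96, and IDUA, which cuts off iduronic acid, by 0.82 and 0.81. GALNS, which removes the O-6 sulfate, showed -1.53 and -1.42, and ARSB, which removes the O-4 sulfate, -1.48 and -1.38. The third ARSB probe set did not pass (-0.15 and -0.04).

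Of 26 carrier proteins measured, 1 rose and 1 fell with interferon gamma, which is 7.69% against 10.2% of all probe sets. CD74, the invariant chain of class II antigen presentation, of which a form carries chondroitin sulfate, read 10.87, 10.74 and 10.79 in treated T84, 7.21, 7.19 and 7.37 in untreated T84 and 8.61, 8.57 and 8.39 in Caco-2. The treated arrays were above all others, and the rise was 11.7-fold (3.54 ± 0.08; limma adjusted p = 2.55e-08). SDC1, the main epithelial syndecan, fell by 0.52 on the log2 scale (-0.52 ± 0.11; limma adjusted p = 0.0187), a call lost without treated replicate 1 or 2, without untreated replicate 2 or 3 and under ribosomal centring. Against Caco-2, CD44, a hyaluronan receptor with forms that carry chondroitin sulfate, was higher by 4.39 in treated and 4.68 in untreated T84, and FMOD, which mainly carries keratan sulfate, lower at -3.26 and -3.21. Over all 69 other pathway genes, 1 rose and 4 fell with interferon gamma, which is 7.25% against 10.2% of all probe sets.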

How the data were processed

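RNA of 9 samples was measured on 9 arrays. The authors deposited log2 signals of 1259 probe sets; RMA is named per the submitters' processing notes, with no version, and no scanner values were used here. RMA brings arrays close to 1 distribution, so a shift of most genes would be lost. The 1259 probe sets did not share it exactly: quantile normalization moved their median from 0.02 to 0.05 in treated T84 against Caco-2. Probe sets were named through the RefSeq accessions in their identifiers: 1043 had 1 symbol and 216 had none. Groups came from the sample labels. Limma 3.58.1 in R 4.3.3 was fitted to the log2 signals with 1 group factor (6 residual and 2.12 prior degrees of freedom), after it was tested on simulated data. The median standard error of a log2 difference was 0.0774; the number of arrays limits precision. A gene with several probe sets is given by its brightest. Named were all members, up to 4 genes per other list and comparison that passed without overlap, and the 3 genes most like each clearly changed member. Promoters came from RefSeq (GRCh38.p14), scanned with Python 3.11.15. Members, lists and rules were chosen with earlier results of these data known. Alternatives changed 1 choice at a time: arrays fitted, moderation, weights, scaling, filter, threshold, probe set rule, replicate block and single arrays left out.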

Additional observations from a re-analysis of the deposited data

How the results depend on the processing

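Of 504 alternative values for the 27 differences of the 9 enzymes, 432 kept their direction and side of the threshold, 26 passed newly, 32 no longer passed and 14 changed sign. The number of enzymes called in treated against untreated T84, 1 as reported, was 2 with only the 6 arrays, with an intensity trend and robust moderation, or with array weights, 0 at an adjusted p below 0.01 in limma (2 had an unadjusted p below 0.05), and 0 to 2 with each array left out. In treated T84 against Caco-2, 6 as reported became 3 with only the 6 arrays and 3 at the stricter threshold. For the other pathway genes in treated against untreated T84, 5 as reported became 8 with only the 6 arrays, 10 with array weights, 3 under ribosomal centring, 3 at the stricter threshold and 3 to 9 with each array left out. Sign changes were in differences that did not pass. With single arrays left out, CHPF ran from -0.03 to 0.17, CSGALNACT2 from -0.02 to 0.32 and CHST13 from -0.03 to 0.06 in treated against untreated T84, and UST from -0.03 to 0.05 in untreated T84 against Caco-2. CHST12 in untreated T84 against Caco-2 was 0.01 with array weights, 0.05 under ribosomal centring and 0.01 without the 3 lowest-scoring arrays, an alternative chosen after seeing the data. UST became 0.02 (treated against untreated T84), 0.00 (treated T84 against Caco-2) and -0.02 (untreated T84 against Caco-2) without those arrays, and 0.20 in treated T84 against Caco-2 under ribosomal centring. The cause was not tested. Same-numbered arrays did not all deviate together: the correlations of treated with untreated T84 were 0.39, -0.02 and 0.56 for replicates 1, 2 and 3, and those of T84 with Caco-2 ran from -0.64 to 0.47. The numbers were therefore not taken to pair the arrays; with the replicate block, limma called 0 enzymes (2 at an unadjusted p below 0.05) and 3 other pathway genes in treated against untreated T84, and CHSY1 had an adjusted p of 0.061. Dim signals limit CSGALNACT1, CHST11 and UST among the members, and CHSY3, DSEL and CHST9 among the other synthesis enzymes.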
